A study of Mus musculus with 6 samples.

Results

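Iron is absorbed, stored and released by epithelial cells through a small set of proteins, and 8 of their genes are described here: Cybrd1, Slc11a2 and Tfrc for uptake, Fth1 and Ftl1 for storage, Slc40a1 and Heph for export, and Hmox1 for the release of iron from haem. They were found by symbol among the 24346 gene entries of the deposited tables, and each of the 8 had 1 entry. Epithelial cells were taken from the distal, middle and proximal colon of wild-type mice of the inbred strain C57BL/6J, with no treatment named in the labels. Each region has 1 female and 1 male library, so n = 2 per region and 6 libraries in all. The number of mice behind a library is not in the labels, nor is it said if 1 mouse gave all 3 regions. With 1 library per region and sex, a p-value here reflects spread around a fit of region plus sex. A regional change that differs between the sexes counts as spread in it. Part of the spread may be technical. Values are FPKM, fragment counts scaled by the authors' software to transcript length and library size.

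In the enterocytes of the duodenum, where most dietary iron is taken up, the ferric reductase encoded by Cybrd1 reduces iron at the apical surface and the divalent metal transporter encoded by Slc11a2 brings it into the cell. Ferritin, a shell of heavy (Fth1) and light (Ftl1) chains, stores it. Ferroportin, encoded by Slc40a1, is the known cellular exporter of iron, and the membrane ferroxidase hephaestin, encoded by Heph, oxidises the iron that leaves. The transferrin receptor encoded by Tfrc takes up iron from plasma at the basolateral side and in dividing cells, and haem oxygenase, encoded by Hmox1, opens haem and frees its iron. Iron regulatory proteins tie these genes together: when iron is scarce they bind a hairpin in the messenger RNA, the iron-responsive element, which blocks translation when it lies before the coding sequence and protects the transcript from decay when it lies after it. Iron is thus known to act on the amount of Tfrc RNA and, for ferritin, mostly on translation, which RNA levels do not show.

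The elements of the 8 genes are printed because they are the sequence that the iron sensor reads. A search of the coding GENCODE M21 transcripts (mm10) for the loop CAGTGN with A, C or T as its last base, an unpaired C before the upper stem and 5 paired bases in that stem (G with T allowed) found them in Fth1, Ftl1, Slc40a1 and Tfrc, and a form with 1 unpaired base on the 3′ side of the stem in Slc11a2. The transcript strand alone was searched, since the element is an RNA hairpin, and no 2 elements overlap. Each is given 5′ to 3′ in DNA letters on the transcript strand, with the loop in capitals:
Fth1, chr19:9982732-9982761, plus strand: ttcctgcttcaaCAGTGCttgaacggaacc
Ftl1, chr7:45459778-45459807, minus strand: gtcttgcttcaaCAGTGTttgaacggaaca
Slc40a1, chr1:45925464-45925493, minus strand: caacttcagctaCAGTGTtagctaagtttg
Slc11a2, chr15:100395152-100395181, minus strand: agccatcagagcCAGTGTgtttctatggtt
Tfrc, chr16:32631219-32631248, plus strand: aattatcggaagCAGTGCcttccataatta
Tfrc, chr16:32631598-32631627, plus strand: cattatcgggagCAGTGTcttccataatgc
Tfrc, chr16:32631663-32631692, plus strand: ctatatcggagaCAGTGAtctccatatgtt
Tfrc, chr16:32631710-32631739, plus strand: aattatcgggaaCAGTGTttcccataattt
The elements of Fth1, Ftl1 and Slc40a1 lie in the 5′ UTR, and those of Slc11a2 and Tfrc in the 3′ UTR. The 4 elements of Tfrc occupy bases 3315 to 3835 of a transcript of 4890 bases whose coding sequence ends at base 2429. The Slc11a2 element is in 1 of the 6 coding transcripts of that gene. Those of the other genes are in 1 of 4 coding transcripts (Slc40a1), 1 of 3 (Tfrc), 1 of 2 (Ftl1) and 4 of 5 (Fth1). The deposited values, given per gene, do not separate the forms of any of them. Cybrd1, Heph and Hmox1 had no match to these letters. Over the longest coding transcript of each of 21877 genes, 0.932% held the form with 5 pairs and 2.69% held either form, so a match by itself is a description of the sequence.

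**Figure D1:**
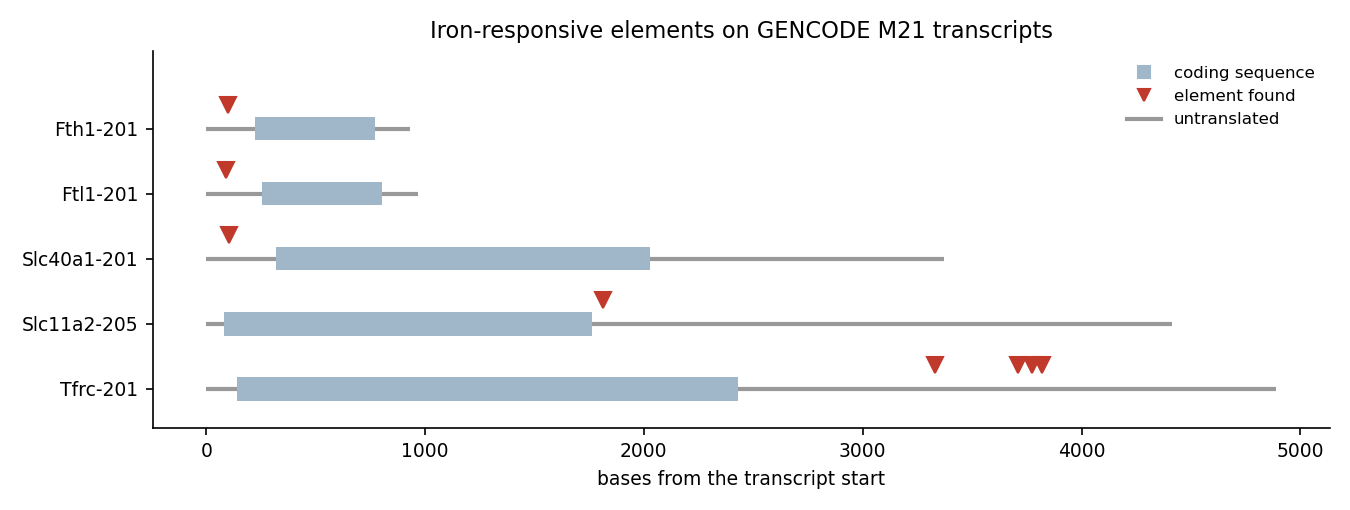
Position of the matched elements (triangles) on 1 transcript of each of the 5 genes that hold them, in bases from the transcript start, with the coding sequence as a block. The elements lie before the coding sequence in Fth1, Ftl1 and Slc40a1 and after it in Slc11a2 and Tfrc, where 4 were found.

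The genes are spread over the genome (mm10, GENCODE M21). Slc40a1 lies on chromosome 1 (45908068 to 45926523), Slc11a2 on chromosome 15 (100387898 to 100425072), Cybrd1 on chromosome 2 (71117923 to 71142926) and Heph on chromosome X (96455359 to 96574485). Tfrc lies on chromosome 16 (32608920 to 32632794), Fth1 on chromosome 19 (9980598 to 9985098), Ftl1 on chromosome 7 (45457944 to 45459884) and Hmox1 on chromosome 8 (75093621 to 75100589). Reads of Fth1 and Ftl1 can be exchanged with processed copies, of which the annotation names 2 for Fth and 3 for Ftl, so their levels are uncertain to that extent. Slc11a2 and Heph each overlap a coding gene on the opposite strand, Gm5475 at 0 to 0.143 FPKM and Hsf3 at 0 FPKM in the 6 libraries, and the strand handling of the deposited values is not given in the sources used here.

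Total FPKM ranged from 546269 to 612818 per library, 11170 to 11473 entries reached 1 FPKM, and the spacing of the lowest values put depth at about 7830000 to 9940000 fragments per library, an estimate that assumes a fragment length of 200 bases. The epithelial label held: the 7 epithelial markers, led by Krt8 and Krt19, summed to 7676 to 9403 FPKM. Of the 8 fibroblast and smooth muscle markers 7, and of the 5 endothelial markers 4, were below 1 FPKM in every library.

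Storage genes stood far above the rest. Fth1 averaged 2222 FPKM over the 6 libraries (1506 to 4088) and Ftl1 1745 FPKM (1417 to 2683). Together they made up 0.568% and 0.541% of all FPKM in the female and male distal libraries, 0.548% and 0.537% in the middle and 0.714% and 1.18% in the proximal ones. The heavy chain was above the light chain in each library, with a ratio of Fth1 to Ftl1 FPKM of 1.43 and 1.18 in the female and male distal libraries, 1.05 and 1.06 in the middle ones, and 1.23 and 1.52 in the proximal ones.

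**Figure D2:**
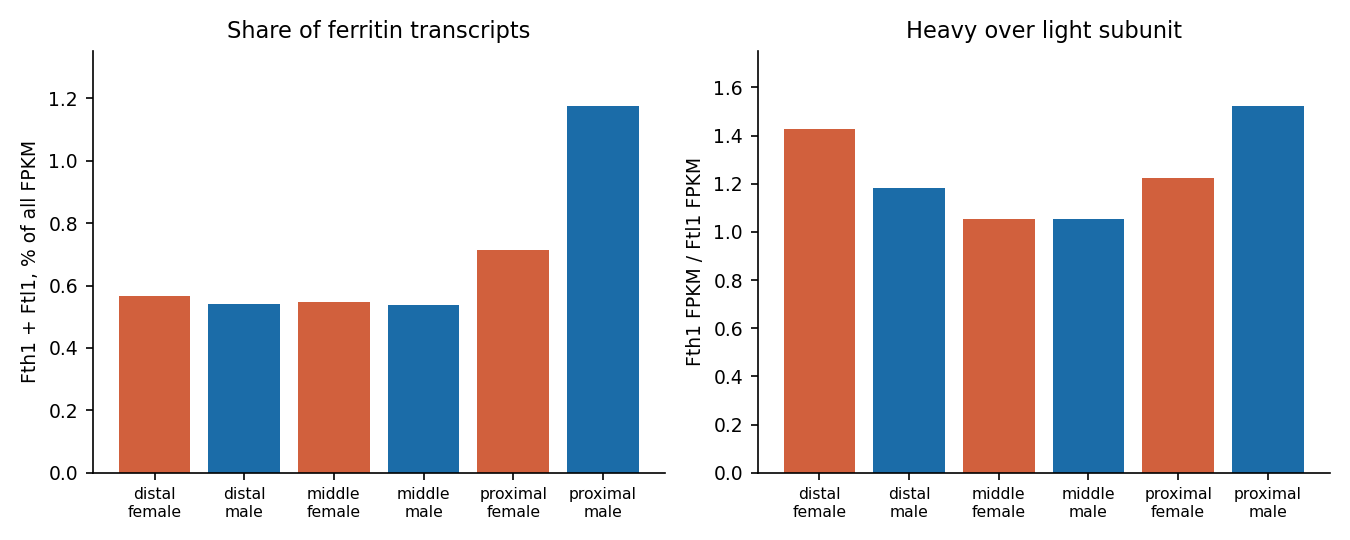
Left, Fth1 and Ftl1 together as a percentage of all FPKM in each of the 6 libraries. Right, the ratio of Fth1 to Ftl1 FPKM. The male proximal library has the tallest bar in both panels, at 1.18% and 1.52.

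Next came 3 genes whose ranges overlapped, so that their order is not set. Tfrc averaged 82.8 FPKM (46.8 to 185), Slc40a1 71.6 FPKM (48.0 to 122) and Heph 47.4 FPKM (42.3 to 53.7). Below them, Slc11a2 averaged 13.0 FPKM (11.8 to 14.0), Hmox1 3.08 FPKM (2.36 to 4.63) and Cybrd1 0.307 FPKM (0.121 to 0.526), and these 3 ranges did not overlap each other or those above. The export genes were thus at higher FPKM than the apical uptake genes in every library: Slc40a1 was 8.72 and 6.73 times the FPKM of Slc11a2 in the female and male distal libraries, 5.62 and 4.06 times in the middle and 4.20 and 3.55 times in the proximal ones. The Cybrd1 values stand for an estimated 6.16 to 26.5 fragments per library and those of Hmox1 for 25.8 to 50.4, so counting error alone is large for both.

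**Figure D3:**
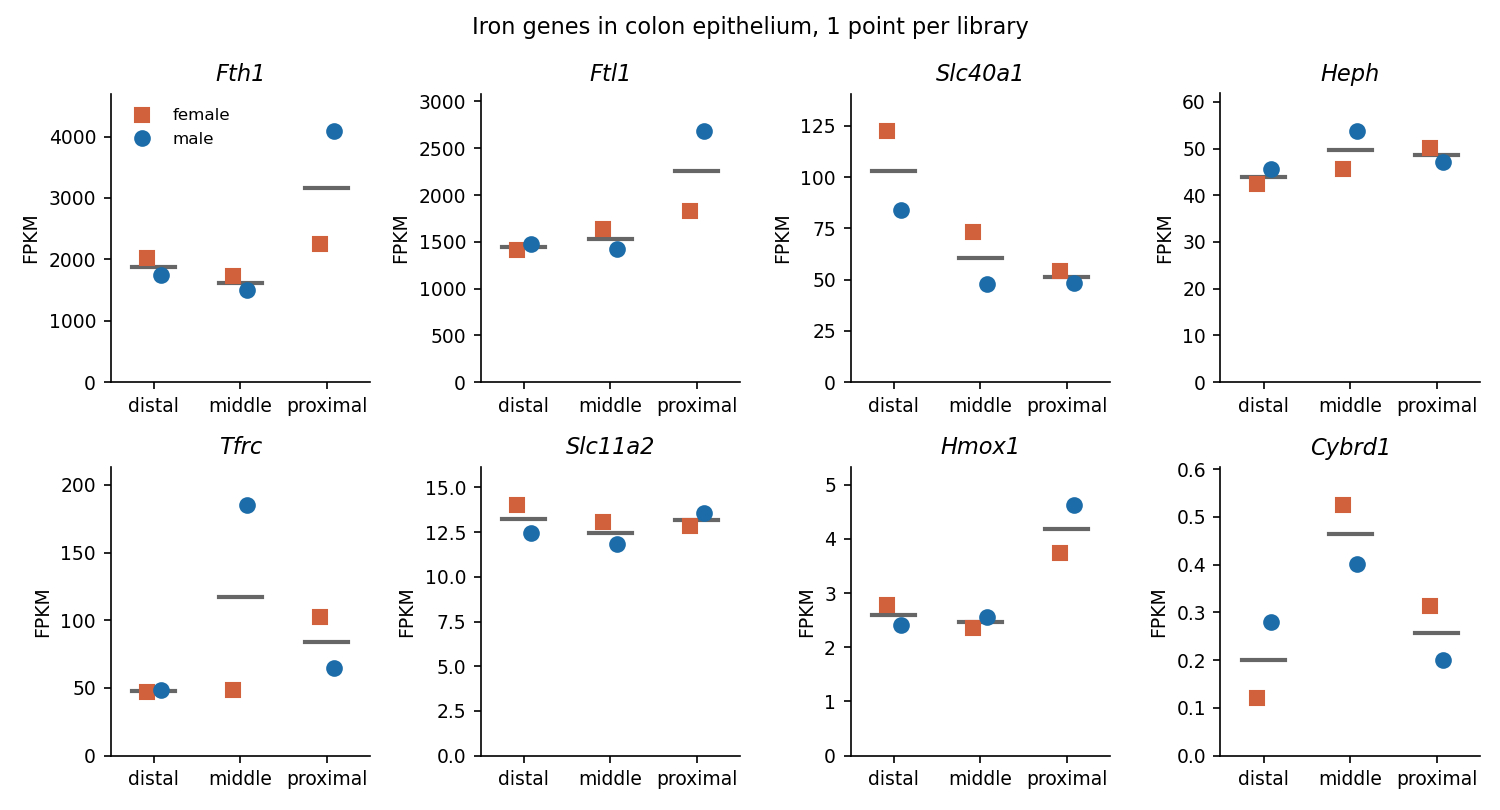
FPKM of the 8 genes in each library by region, with female libraries as squares, male libraries as circles and bars at the mean of the 2. Slc40a1 is highest in distal colon (122 and 83.7 FPKM), Fth1, Ftl1 and Hmox1 are highest in proximal colon, and Tfrc has 1 high library, the male middle one at 185 FPKM. Each panel has its own axis from 0.

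The first comparison, distal against proximal colon, sets the ends of the colon against each other. Ferroportin was higher at the distal end: Slc40a1 was at 122 and 83.7 FPKM in the female and male distal libraries, against 54.0 and 48.1 FPKM in the proximal ones. Both distal libraries lay above both proximal ones. The means were 103 ± 27.3 FPKM in distal and 51.1 ± 4.17 FPKM in proximal colon (SD, n = 2 each), a rise of 0.98 on the log2(FPKM + 1) scale (SE 0.14, 95% interval 0.63 to 1.32, limma adjusted p = 0.0116). The middle libraries were at 73.4 FPKM in the female, between the ends, and 48.0 FPKM in the male, at the proximal level. The rise was 1.17 in females and 0.79 in males on the log2 scale. The call depends on both distal libraries and on the term for sex: the limma adjusted p was 0.0723 without the female distal library, 0.0747 without the male distal library and 0.0619 without the term, with rises of 0.90, 1.06 and 0.98. In the other alternatives it ranged from 0.00325 to 0.0317.

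Slc40a1 was the 1 gene called among the 7 of the 8 that passed the filter of 1 FPKM in at least 2 libraries, while limma called 14.1% of all 11815 genes tested, 6.47% higher and 7.64% lower in distal colon. A share of 1 in 7 is at that background, so the result concerns Slc40a1 and not the 8 genes as a group. At an unadjusted p under 0.05 there were 3 of the 7, against 29.2% of all genes tested. Of the 7, 2 were fitted higher and 5 lower in distal colon. Their median log2 difference was -0.53, against 0.0067 over all genes tested. Libraries of the ends did not overlap for 6 of the 7, against 60.3% of all genes tested: 1 of the 7 was higher in distal colon throughout (30.8% of all genes) and 5 were lower (29.5%). In bulk RNA, a difference in the number of cells that express a gene and a difference in RNA per cell cannot be told apart.

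The other exporter partner, Heph, stayed within a narrow range. Hephaestin transcripts were at 42.3 and 45.6 FPKM in the female and male distal libraries, 45.6 and 53.7 FPKM in the middle ones, and 50.0 and 47.2 FPKM in the proximal ones. The distal libraries were below the proximal ones without passing the test (log2 difference -0.14, 95% interval -0.43 to 0.14, limma adjusted p = 0.475).

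Slc11a2, the apical importer, was the steadiest of the 8. It was at 14.0 and 12.4 FPKM in the female and male distal libraries, 13.1 and 11.8 FPKM in the middle ones, and 12.9 and 13.5 FPKM in the proximal ones. All 3 regions overlapped. The interval of the log2 difference between distal and proximal colon ran from -0.29 to 0.29 (limma adjusted p = 0.995), which leaves room for a change of that size but not for one like that of Slc40a1.

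Cybrd1, the reductase, was below 1 FPKM in all 6 libraries and did not pass the filter. It was at 0.121 and 0.279 FPKM in the female and male distal libraries, 0.526 and 0.402 FPKM in the middle ones, and 0.313 and 0.199 FPKM in the proximal ones. Both middle libraries were above the other 4. Fitted with no filter, its log2 difference was -0.07 between distal and proximal colon (limma adjusted p = 0.777) and 0.22 between middle and proximal colon (limma adjusted p = 0.461), both on a scale that compresses values this low.

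The 2 middle libraries were further apart in Tfrc than the means of any 2 regions. It was at 46.8 and 48.5 FPKM in the female and male distal libraries, against 103 and 64.9 FPKM in the proximal ones. The middle libraries were at 48.7 FPKM in the female and 185 FPKM in the male. Distal values were thus alike in both sexes and below both proximal values, and the male middle library alone stood above all the others. The log2 difference between distal and proximal colon was -0.77 (SE 0.57, 95% interval -2.20 to 0.67, limma adjusted p = 0.440), and without the female proximal library it was 0.05. Between middle and proximal colon Tfrc was higher by 1.5 in males and lower by 1.06 in females on the log2 scale, and the fitted difference of 0.22 (95% interval -1.21 to 1.65) averages these.

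Markers of cells known for high Tfrc were read beside it. The 11 proliferation markers summed to 128 and 165 FPKM in the female and male distal libraries, 151 and 219 FPKM in the middle ones and 227 and 232 FPKM in the proximal ones, and 4 of the 11, among them Rrm2 and Pcna, were lower in distal than in proximal colon by limma. Pcna made up the largest part of the sum. Without it the male middle library, where Tfrc was highest, had the highest sum at 142 FPKM. The female and male proximal libraries were near it at 128 and 138 FPKM. Of the 11 markers 4, Mki67, Top2a, Ccnb2 and Birc5, were highest in the male middle library. As many, 4, were highest in the male proximal library and 3 in the female proximal one, where Tfrc was at 64.9 and 103 FPKM. The 9 red cell and erythroblast entries, mostly haemoglobin genes that share sequence, summed to 69.3 and 266 FPKM in the female and male distal libraries, 200.2 and 219 FPKM in the middle ones and 92.1 and 293 FPKM in the proximal ones. Slc4a1 and Klf1 were below 1 FPKM in all 6 libraries. The part of these cells in the Tfrc values was not tested.

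Both ferritin chains and Hmox1 were highest in proximal colon, and of its libraries the male one was the higher for all 3 genes. Fth1 was at 2022.5 and 1743 FPKM in the female and male distal libraries and 1724 and 1506 FPKM in the middle ones, against 2247 and 4088 FPKM in the proximal ones. Ftl1 was at 1417 and 1473 FPKM in the female and male distal libraries and 1635 and 1428 FPKM in the middle ones, against 1834 and 2683 FPKM in the proximal ones. For both genes the proximal libraries were above all 4 others, and the female proximal library was much nearer to those 4 than the male one. The log2 differences between distal and proximal colon, -0.69 for Fth1 (SE 0.31, 95% interval -1.47 to 0.09, limma adjusted p = 0.216) and -0.62 for Ftl1 (SE 0.23, 95% interval -1.18 to -0.05, limma adjusted p = 0.143), did not pass the test. They were -0.15 and -0.37 in females and -1.23 and -0.86 in males. Without the female proximal library Fth1 passed (log2 difference -1.22, limma adjusted p = 0.0430), and with quantile normalization Ftl1 passed (-0.85, limma adjusted p = 0.0236). Without the male proximal library the differences shrank to -0.16 for Fth1 and -0.31 for Ftl1 (limma adjusted p = 0.783 and 0.549), and without the male distal library that of Fth1 was -0.42 (limma adjusted p = 0.783).

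Hmox1 was at 2.78 and 2.40 FPKM in the female and male distal libraries and 2.36 and 2.56 FPKM in the middle ones, against 3.74 and 4.63 FPKM in the proximal ones. Both proximal libraries were above the other 4. The log2 difference between distal and proximal colon was -0.53 (SE 0.17, 95% interval -0.94 to -0.11, limma adjusted p = 0.106). Its unadjusted interval excluded 0, but the adjusted test was not passed.

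The 9 T cell and intraepithelial lymphocyte markers summed to 5.62 and 4.31 FPKM in the female and male distal libraries and 11.3 and 6.21 FPKM in the middle ones, against 23.6 and 56.2 FPKM in the proximal ones, so the male proximal library was the highest for these markers as for Fth1, Ftl1 and Hmox1. Of the 7 that were fitted, 4 were lower in distal than in proximal colon by limma (Gzma, Cd7, Gzmb and Cd8a), and Gzma was also lower in middle than in proximal colon. Gzma, Gzmb and Cd8a passed the filter only through the proximal libraries, where they are high, so the count of 4 is a description. Their part in the ferritin and Hmox1 values was not tested. Macrophages, which recycle iron and are rich in ferroportin and haem oxygenase, left little trace: of 12 markers 8 were below 1 FPKM in every library, Adgre1 was at 0 to 0.10 FPKM, Csf1r at 0 to 0.21 FPKM and Spic was listed at 0. The complement gene C1qa was at 6.52 FPKM in the male proximal library and below 1 FPKM in the other 5. C1qb and C1qc did not follow it, at 0 to 0.824 and 0 to 0.594 FPKM. Lyz2 was highest in the female middle library, at 3.79 FPKM, and Cd68 ranged from 0.733 to 2.27 FPKM. The summed level of the 12 was 42.6 and 41.4 FPKM in the female and male distal libraries, 41.7 and 26.9 FPKM in the middle ones and 23.3 and 21.7 FPKM in the proximal ones. Cd14 made up 81.3% to 91.5% of it in 5 libraries and 56.8% in the male proximal one. It was at 37.8 and 37.9 FPKM in the distal libraries against 20.7 and 12.3 FPKM in the proximal ones, a rise of 1.19 on the log2 scale (limma adjusted p = 0.0145), in the same direction as Slc40a1. Of the 12 markers only 2 were fitted, and the other, Cd68, did not pass (log2 difference 0.36, limma adjusted p = 0.457). The rise is thus that of Cd14 and not of the list. Goblet cell markers summed to 7301 and 5961 FPKM in the female and male distal libraries and 12905 and 8546 FPKM in the middle ones, against 4447 and 3517 FPKM in the proximal ones, with 4 of 7 higher and 2 lower in distal than in proximal colon by limma. Surface colonocyte markers summed to 2931 and 3115 FPKM in the distal libraries and 2984 and 3599 FPKM in the middle ones, against 3509 and 2490 FPKM in the proximal ones, with 0 of 7 higher and 2 lower (Tmigd1 and Emp1). The list was split. Slc26a3, Car4, Aqp8 and Ceacam20, with log2 differences of 0.80, 1.07, 1.59 and 0.80, lay in the direction of Slc40a1 and did not pass (limma adjusted p = 0.0525, 0.0644, 0.0716 and 0.101). Tmigd1, Emp1 and Krt20 lay in the other direction, at -4.26, -3.71 and -1.31, and Krt20 did not pass (limma adjusted p = 0.0620). All 7 were at an unadjusted p under 0.05, and the median log2 difference was 0.80. The part of these cell types in the Slc40a1 values was not tested.

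**Figure D4:**
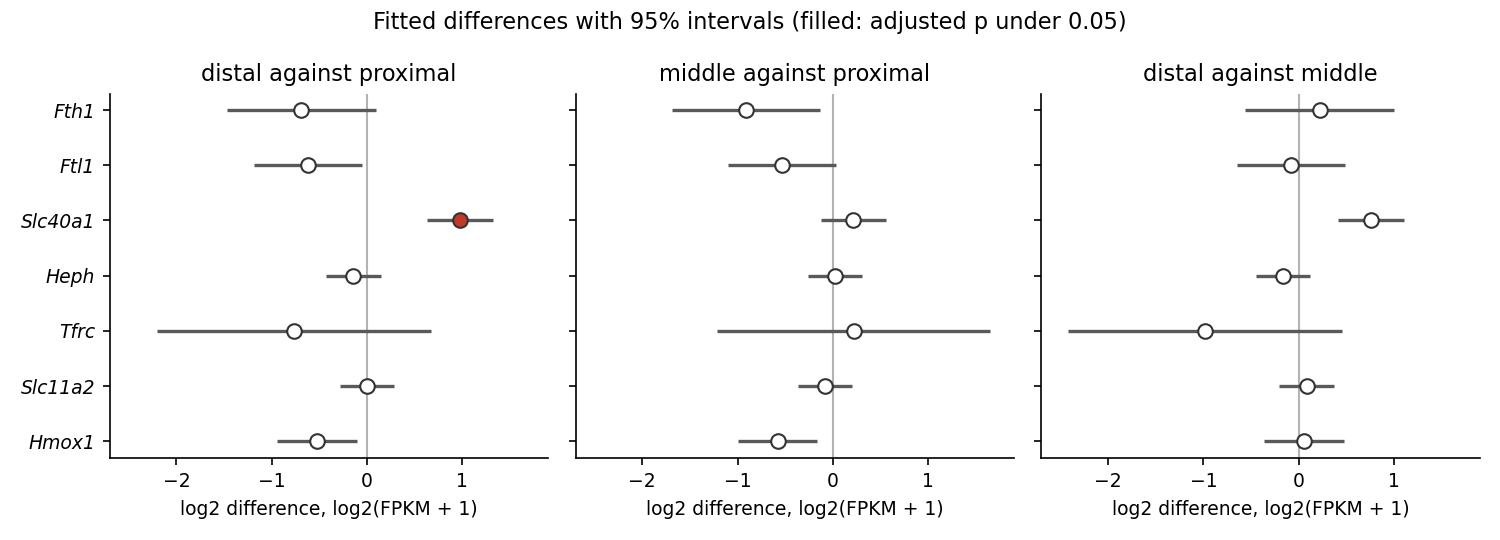
Fitted log2 differences (points) with 95% intervals (lines) for the 7 genes that passed the filter, in the 3 comparisons of regions, on the log2(FPKM + 1) scale. The 1 filled point is Slc40a1 between distal and proximal colon at 0.98, and the interval of Tfrc is the widest in each panel.

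The second comparison, middle against proximal colon, sets the intermediate region against the proximal end and shares the proximal libraries with the first. For ferritin and Hmox1 both middle libraries were below both proximal ones: the log2 differences from proximal colon were -0.91 for Fth1 (SE 0.31, limma adjusted p = 0.208), -0.54 for Ftl1 (SE 0.23, limma adjusted p = 0.298) and -0.58 for Hmox1 (SE 0.17, limma adjusted p = 0.151). Slc40a1 differed by 0.22 (95% interval -0.13 to 0.56, limma adjusted p = 0.498), with the female middle library above both proximal ones and the male middle library level with the male proximal one. limma called 0 of the 7 genes at the adjusted threshold and 2, Fth1 and Hmox1, at an unadjusted p under 0.05, against 2.45% of all genes tested at the adjusted threshold (1.19% higher and 1.25% lower) and 18.3% at the unadjusted one. Without the female proximal library it called 1, Fth1 (log2 difference -1.44, limma adjusted p = 0.0390), and without the male proximal library the differences were -0.38 for Fth1 and -0.23 for Ftl1 (limma adjusted p = 0.627 and 0.783). Libraries did not overlap for 3 of the 7 genes, all lower in middle colon, against 43.8% of all genes tested, 21.6% higher and 22.2% lower.

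The third comparison, distal against middle colon, covers the remaining stretch. Slc40a1 was higher in distal colon by 0.76 on the log2 scale (SE 0.14, 95% interval 0.42 to 1.10), in both sexes (0.73 in females and 0.79 in males), and did not pass after adjustment (limma adjusted p = 0.118). It passed without the female or the male proximal library (limma adjusted p = 0.0155 and 0.0162), with 1 residual degree of freedom. limma called 0 of the 7 genes at the adjusted threshold and 1, Slc40a1, at an unadjusted p under 0.05, against 0.499% of all genes tested at the adjusted threshold (0.110% higher and 0.389% lower) and 12.7% at the unadjusted one. Tfrc was lower by 0.98 on the log2 scale (95% interval -2.42 to 0.45), and without the male middle library it was higher by 0.12. The intervals of Fth1, Ftl1 (-0.65 to 0.49), Hmox1 (-0.36 to 0.47), Heph (-0.45 to 0.12) and Slc11a2 (-0.20 to 0.37) all held 0. Libraries did not overlap for 3 of the 7 genes, against 39.7% of all genes tested: Slc40a1 and Fth1 were higher in distal colon (20.5% of all genes) and Tfrc was lower (19.1%).

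Between female and male libraries, 3 of each and 1 of each region, Slc40a1 was higher in the female library of every region, by a fitted log2 difference of 0.44 (SE 0.11, 95% interval 0.16 to 0.72, limma adjusted p = 0.407). limma called 0 of the 7 genes at the adjusted threshold and 1, Slc40a1, at an unadjusted p under 0.05, against 0.0423% of all genes tested at the adjusted threshold (0.00846% higher and 0.0339% lower in females) and 10.6% at the unadjusted one. Libraries of 3 regions are not replicates of a sex. Estimated depth was 8930000 to 9940000 fragments in the female libraries and 7830000 to 7940000 in the male ones. Sex and depth can therefore not be told apart here.

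Other genes of iron handling were counted by list. Counts between distal and proximal colon, here and for the cell markers above, stand against 14.1% of all genes tested. Of all genes tested, limma called 6.47% higher and 7.64% lower, and 29.2% were at an unadjusted p under 0.05. Between middle and proximal colon the share called was 2.45%. Among 10 fitted genes of iron entry and reduction, limma called 2 higher and 2 lower in distal than in proximal colon (median log2 difference 0.07). Trf, the plasma iron carrier transferrin, was at 13.5 and 16.1 FPKM in the female and male distal libraries and 5.32 and 1.12 FPKM in the middle ones, against 0.420 and 0.879 FPKM in the proximal ones (log2 difference 3.27, SE 0.49, limma adjusted p = 0.0136). Slc46a1, a proton-coupled folate transporter that also carries haem, was at 28.8 and 15.0 FPKM in the female and male distal libraries and 12.7 and 4.97 FPKM in the middle ones, against 3.79 and 2.75 FPKM in the proximal ones (log2 difference 2.37, SE 0.21, limma adjusted p = 0.0040). In each sex both were highest in distal and lowest in proximal colon. The metal importer Slc39a8 fell by 0.99 on the log2 scale, to 4.63 and 5.79 FPKM in the female and male distal libraries against 10.6 and 12.01 FPKM in the proximal ones (limma adjusted p = 0.0070). Slc22a17, a receptor for the siderophore carrier lipocalin, fell by 1.11, with 1.66 FPKM as its highest value (limma adjusted p = 0.0238). It reached 1 FPKM in the proximal libraries alone and so passed the filter only through the region where it is high, which makes its call no support for a difference. Tfr2, a second transferrin receptor known from liver, was listed at 0 in all 6 libraries.

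Of 6 fitted storage, chaperone and export genes beside the 8, among them the iron chaperones Pcbp1 and Pcbp2 and the ferritin cargo receptor Ncoa4, limma called 0 between distal and proximal colon, and 1, the haem and urate exporter gene Abcg2, was at an unadjusted p under 0.05 (median log2 difference 0.13). The mitochondrial ferritin gene Ftmt was listed at 0 in all libraries. Among 9 fitted genes of iron sensing and its hormones, the counts were 3 higher and 1 lower in distal colon, and the median log2 difference was 0.30. Hif1a, an oxygen-regulated transcription factor subunit, was at 51.4 and 46.7 FPKM in the female and male distal libraries, against 24.5 and 8.13 FPKM in the proximal ones (log2 difference 1.71, SE 0.36, limma adjusted p = 0.0335). Egln1, the prolyl hydroxylase that marks such subunits for decay, rose by 0.46, and Erfe, known as a hormone of erythroblasts that lowers hepcidin, rose by 0.77 to 4.89 and 6.32 FPKM (limma adjusted p = 0.0486 and 0.0221). Fbxl5, the ubiquitin ligase subunit that removes iron regulatory proteins when iron is plentiful, fell by 0.51 (limma adjusted p = 0.0362). The call of Egln1 was lost with a pseudocount of 0.1, no filter, quantile normalization, no trend or no sex term. That of Hif1a was lost with no filter, no trend or no sex term, and that of Fbxl5 with no filter or no trend. Erfe lost its call with no filter and was not fitted with a filter of 5 FPKM. The iron regulatory protein genes were at 31.9 to 34.7 FPKM (Aco1) and 14.9 to 23.7 FPKM (Ireb2), with log2 differences of 0.04 and -0.48 that did not pass (limma adjusted p = 0.840 and 0.0577). The hepcidin gene Hamp was listed at 0 in 5 libraries and at 0.649 FPKM in the male proximal one, its near copy Hamp2 ranged up to 3.01 FPKM, and reads of the 2 may be exchanged. Hjv, a hepcidin regulator, was listed at 0 in all 6.

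Among 16 fitted genes of mitochondrial iron, iron-sulfur clusters and haem synthesis, limma called 1 higher and 3 lower in distal colon (median log2 difference -0.00046). Alas1, the first and rate-limiting enzyme of haem synthesis outside erythroid cells, fell by 1.66 (SE 0.29, limma adjusted p = 0.0206), to 41.8 and 34.3 FPKM in the female and male distal libraries and 47.9 and 95.4 FPKM in the middle ones, against 99.5 and 149 FPKM in the proximal ones. Abcb6, a porphyrin transporter, fell by 1.47 (SE 0.14, limma adjusted p = 0.0042), to 15.1 and 18.4 FPKM in the distal libraries against 38.1 and 60.2 FPKM in the proximal ones, and was also lower in middle than in proximal colon (log2 difference -0.89, limma adjusted p = 0.0433). The mitoferrins, which import iron into mitochondria, went opposite ways: Slc25a28 rose by 0.51 and Slc25a37 fell by 0.66 (limma adjusted p = 0.0418 and 0.0371). Neither mitoferrin passed with no filter, no trend or no sex term, and Slc25a28 did not pass with quantile normalization. The call of Alas1 was lost with no filter. Of 4 fitted genes of haem breakdown besides Hmox1, among them Hmox2 and Blvrb, limma called 0 between distal and proximal colon, with 0 at an unadjusted p under 0.05 (median log2 difference 0.01).

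Nrf2, a transcription factor of the oxidant response, is known to activate Hmox1 and both ferritin genes. Of 11 fitted genes in a list of Nrf2, its inhibitor Keap1 and its known targets, limma called 5 lower and 0 higher in distal than in proximal colon (median log2 difference -0.61). Nqo1, a quinone reductase, was at 13.7 and 24.4 FPKM in the female and male distal libraries and 29.7 and 35.2 FPKM in the middle ones, against 50.9 and 78.8 FPKM in the proximal ones (log2 difference -1.74, SE 0.15, limma adjusted p = 0.0036). Malic enzyme, Me1, had a log2 difference of -3.41, with 0.0659 and 0.0416 FPKM in the female and male distal libraries against 6.70 and 15.3 FPKM in the proximal ones (limma adjusted p = 0.0042). It too passed the filter only with the proximal libraries, which makes its calls against proximal colon no support for a difference. Srxn1, Taldo1 and Nfe2l2, which encodes Nrf2, had log2 differences of -1.03, -0.87 and -0.75 (limma adjusted p = 0.0130, 0.0089 and 0.0175). Between middle and proximal colon 2 of the 11 were lower, Nqo1 (log2 difference -0.95) and Me1 (-2.25; limma adjusted p = 0.0479 and 0.0348). A link of these genes with Fth1, Ftl1 and Hmox1 was not tested.

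Between distal and proximal colon limma called 14.1% of all genes tested. Across the lists, whose fitted genes are counted above list by list, 17 genes passed. Without the male distal library 4 of them did, Slc46a1, Abcb6, Nqo1 and Me1, and without the female distal library 9 did. Without 1 of the other 4 libraries 12 to 14 passed. With all 6 libraries kept, the fewest passed with no filter, 10, and with no trend, 12. Slc46a1, Abcb6, Nqo1, Slc39a8, Trf, Srxn1, Taldo1 and Nfe2l2 passed in each alternative that kept all 6 libraries. Me1 did too, but in the main fit it passed the filter only with the proximal libraries. Like that of Slc22a17, its call is no support for a difference. The 3 calls between middle and proximal colon, of Abcb6, Nqo1 and Me1, were all lost without the male middle, the female middle or the male proximal library, and with a pseudocount of 0.1, no filter, no trend or no sex term.

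**Figure D5:**
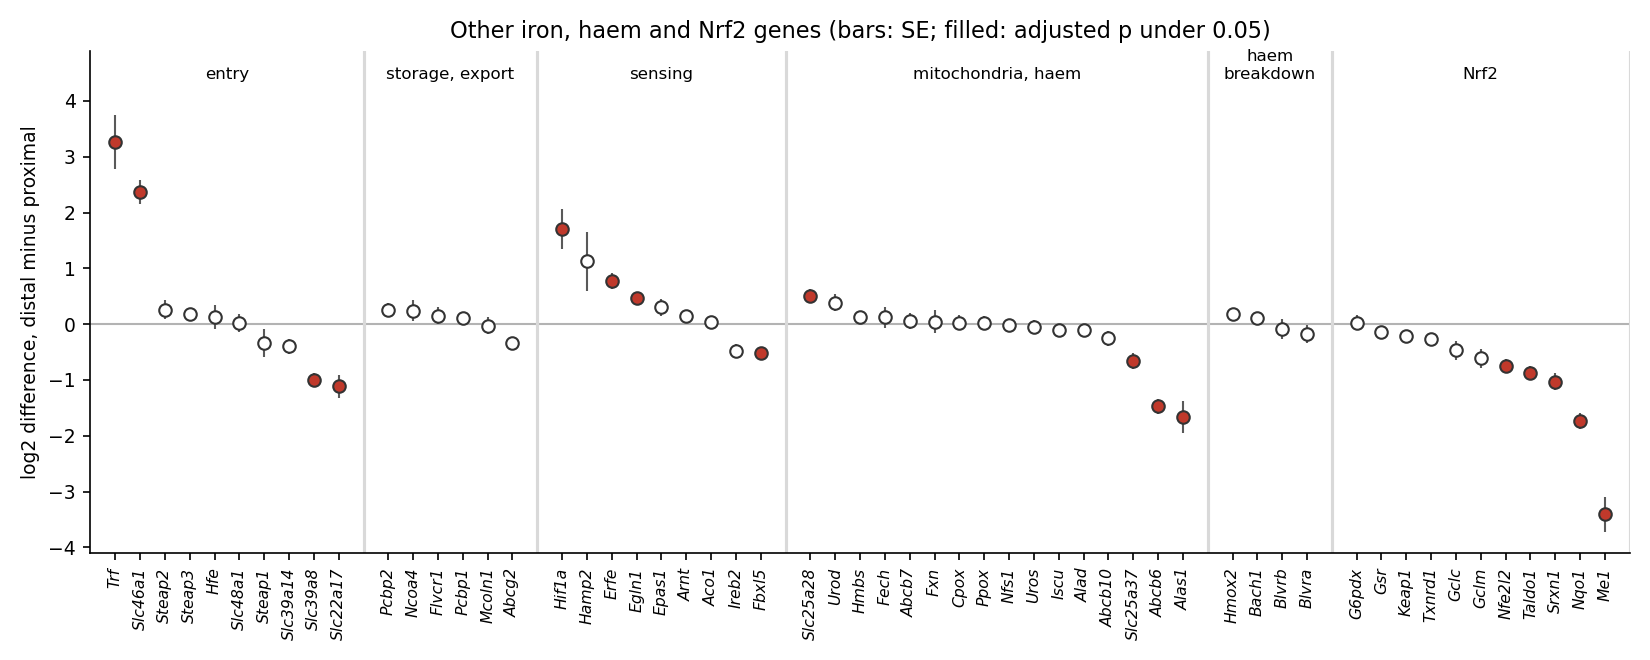
Fitted log2 differences between distal and proximal colon (points, with SE as bars) for the fitted genes of 6 lists of iron, haem and Nrf2 genes. Filled points passed the threshold of 0.05; Trf and Slc46a1 rose furthest, by 3.27 and 2.37, and Me1 has the lowest value, -3.41.

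The genes whose values ran most like those of each of the 7 fitted genes were taken by Pearson correlation of log2(FPKM + 1) over the 6 libraries, among about 8655 genes with a mean of at least 5 FPKM. With 6 points that share regions, sexes and library sizes, these are descriptions. A high r does not mean a change of like size: slopes on the log2 scale ran from 0.12 (Pbx2 on Fth1) to 4.95 (Dio1 on Slc11a2). Slc40a1 was closest to Chmp1b (r = 0.996), Rab5a and Mpzl2 (r = 0.994 for both). Fth1 was closest to Qdpr, Pmm1 and Pbx2 (r = 0.997, 0.995 and 0.993), Ftl1 to Ing1, Emc9 and Sptssa (0.993, 0.993 and 0.992), and Hmox1 to Mylk, Frk and Slc52a2 (0.996, 0.995 and 0.988). Tfrc was closest to Tnfrsf1b, Zfp292 and Duox2 (r = 0.991, 0.977 and 0.975). Slc11a2 and Heph, which hardly varied, were closest to Dio1, D2Wsu81e and Srsf5 (r = 0.988, 0.987 and 0.984) and to 2610005L07Rik, Lsm5 and Xrcc3 (r = 0.986 for each).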

How the data were processed

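Each of the 6 deposited tables lists FPKM per gene symbol for 1 library, per the file headers. Per the labels' protocols, total RNA was column-purified and polyadenylated RNA made into stranded libraries. The submitters' processing notes name mm10 and, in no stated order, Cuffdiff 2.2.1, SAMtools 0.1.18, Bowtie2 2.2.8 and TopHat2 2.1.1. Settings, annotation and library normalization: not given in the sources used here. As FPKM are no counts, count models were left aside. The 11815 of 24346 entries with 1 FPKM or more in 2 or more libraries were tested. Region and sex were fitted to log2(FPKM + 1), a scale that understates changes of low genes, by limma 3.58.1 (R 4.3.3) with a mean-variance trend (2 residual and 3.49 prior degrees of freedom). p-values were adjusted by Benjamini and Hochberg's method over all tested entries, with a threshold of 0.05. The code was tested on simulated data. Replicate numbers are names in accession order (1 male, 2 female), and libraries were matched by the labelled sex. The 8 genes and all lists were chosen with earlier results of these data known. From the lists the text names at most 6 genes past the threshold per list, then those past it in another comparison, then those listed at 0 throughout. Aco1, Ireb2, Hamp, Hamp2, the marker genes and the examples from lists with 0 calls were chosen after their values were seen. Flvcr1, Flvcr2, Hjv and Erfe were matched by older symbols, and Ftl1-ps1, Hbb-bt and Trac were not used here. Depth was estimated from values under 0.2 FPKM in genes whose transcript exceeds 1500 bases. The alternatives tried were each library left out, no matching term, no trend, median-ratio scaling, quantile normalization, a filter of 5 FPKM, no filter, and a pseudocount of 0.1. Plots come from matplotlib 3.10.9 (Python 3.11.15).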

Additional observations from a re-analysis of the deposited data

Results flagged for a closer look

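The sexes moved in opposite directions in 8 comparisons of single genes, each 1 library against 1 library per sex, so these differences were not tested. The widest gap was in Tfrc between middle and proximal colon, with a log2 difference of -1.06 in females and 1.5 in males. Heph in the same comparison differed by -0.13 in females and 0.18 in males, Slc40a1 by 0.44 and -0.004, and Slc11a2 by 0.02 and -0.18. Between distal and proximal colon, Slc11a2 differed by 0.118 in females and -0.115 in males, and Cybrd1 by -0.228 and 0.093. Between distal and middle colon, Ftl1 differed by -0.206 in females and 0.045 in males, and Hmox1 by 0.173 and -0.065. All but Tfrc are small in at least 1 sex.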

How the results depend on the processing

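Over all genes, limma called 1668 between distal and proximal colon (334 to 1518 with a library left out), 289 between middle and proximal (0 to 777), 59 between distal and middle (0 to 426) and 5 between the sexes (3 to 25). With no filter, no trend and no matching term (no replicate block), the counts were 4, 187 and 24 between middle and proximal and 2, 29 and 17 between distal and middle. Of the 8 genes, 1 was called between distal and proximal colon (0 to 2 with a library left out, 2 with quantile normalization, 0 without the matching term, where the pairing by sex is dropped), and 0 in middle against proximal and distal against middle (0 to 1 in each). Some differences that were not called changed sign when a library was left out. Their log2 ranges were -1.58 to 0.051 (Tfrc) and -0.11 to 0.11 (Slc11a2) for distal against proximal, -0.89 to 1.32 (Tfrc), -0.10 to 0.15 (Heph) and -0.19 to 0.027 (Slc11a2) for middle against proximal, -2.09 to 0.12 (Tfrc), -0.054 to 0.49 (Fth1), -0.33 to 0.17 (Ftl1) and -0.11 to 0.21 (Hmox1) for distal against middle, and -0.98 to 0.30 (Tfrc), -0.33 to 0.20 (Fth1), -0.30 to 0.070 (Ftl1) and -0.17 to 0.033 (Hmox1) for female against male. No scaling changed the sign of any of the 7 fitted genes. The causes were not tested. With 1 library of a region left, the fits take its spread from the other regions. Alternatives for genes of the lists were added after seeing the data. Depth limits Cybrd1 and Hmox1 most.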
